A study of Mus musculus with 8 samples.

Results

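Immediate early genes were examined in haematopoietic stem cells, the self-renewing cells at the root of blood formation. The members were chosen by name as the FOS, JUN and EGR family genes Fos, Fosb, Jun, Junb, Jund, Egr1 and Egr2, with the fast response genes Ier2, Dusp1 and Zfp36. All 10 were among the 24222 gene symbols of the count tables. Flow-sorted cells came from bone marrow of 4 control (WT) mice and of 4 mice with a triple knockout (KO) of Kdm4a, Kdm4b and Kdm4c, which encode histone H3 lysine demethylases, both on a C57BL6 background. Knockout had been induced 2 weeks before the cells were taken, with 1 RNA-seq library made per mouse. Not given in the sources used here were the sort markers, the mouse ages, the deleted exons, the way the knockout was induced and whether the controls had the inducing agent.

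Immediate early genes are transcribed within minutes of a stimulus, without new protein synthesis, through transcription factors that are already present, such as serum response factor (SRF) and CREB. FOS and JUN proteins pair through leucine zippers to form the AP-1 transcription factor, and EGR proteins bind DNA through zinc fingers. Their mRNAs decay quickly, in part through AU-rich elements in the 3′ untranslated region, and they are known to rise when cells are dissociated or sorted. The question here was how their RNA levels differ after loss of the 3 demethylases, and how far they differ between mice of the same genotype.

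The 4 WT libraries held 3594315 to 6044289 counts and the 4 KO libraries 5541504 to 14872493. Kdm4a, Kdm4b and Kdm4c each had lower RNA in all 4 KO libraries than in any WT library, with mean counts-per-million (CPM) values of 20.3, 3.73 and 36.0 in KO against 36.3, 10.2 and 115 in WT. By edgeR's quasi-likelihood test Kdm4c passed the threshold (adjusted p = 2.06e-05), while Kdm4a and Kdm4b did not (adjusted p = 0.132 and 0.142). All 8 stem cell markers examined were measured, with a summed level of 4046 to 4278 CPM in WT and 3341 to 3778 CPM in KO. Markers of other blood cells were present at lower sums. Those of neutrophils and monocytes summed to 174 to 226 CPM in WT and 215 to 239 CPM in KO, mostly Lyz2, and those of megakaryocytes to 128 to 172 and 168 to 211 CPM. Markers of B, T and NK cells (15.1 to 30.0 and 19.2 to 45.2 CPM, mostly Nkg7 and Cd79b), macrophages (4.2 to 14.2 and 1.84 to 4.28 CPM) and stroma and endothelium (14.4 to 28.8 and 16.0 to 24.7 CPM) were scarcer. Hba-a1 and Hbb-bs were at 0 in all 8 libraries, and Cd3e, C1qa and Cd79a each averaged under 0.05 CPM. Of these markers 2 passed edgeR's test and are named for that reason, against 0.583% of the 11498 genes tested called in either direction. They came from 4 megakaryocyte markers tested and from 1 macrophage marker tested. Itga2b, known from megakaryocytes and some stem cells, was higher in KO, at 105 ± 15.2 against 53.0 ± 12.6 CPM (SD, n = 4, adjusted p = 0.00737). The macrophage marker Mrc1 fell from 6.09 ± 3.96 to 0.989 ± 0.602 CPM (adjusted p = 0.0198). The call of Mrc1 was lost with limma voom (adjusted p = 0.182), with the legacy edgeR fit (0.0819), and without WT mouse 1 (0.134), WT mouse 4 (0.0812), KO mouse 2 (0.0685), KO mouse 3 (0.105) or KO mouse 4 (0.0606). The numbers on the mice do not pair WT with KO in the labels, and p-values measure the spread between single mice.

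The start regions and 3′ ends of the members are shown first. The RNA of most members went up and down together between mice, and any link of that to these sequences was not tested. Promoter windows came from RefSeq (GRCm38.p6, the same build as mm10), which matched 8 of the 10 members. Egr1 and Ier2 did not match. The window of Jund (chr8:70697539-70697738, plus strand) ends well before the GENCODE start of that gene at 70698949. The bases just before the GENCODE start of Jund were thus not searched. The 200 bases before the start of Fos (chr12:85473690-85473889, plus strand) and of Junb (chr8:84978749-84978948, minus strand) are given 5′ to 3′, with capitals for the core of the CREB element (TGACG on either strand) and for TATAAA on the gene's strand.
Fos promoter: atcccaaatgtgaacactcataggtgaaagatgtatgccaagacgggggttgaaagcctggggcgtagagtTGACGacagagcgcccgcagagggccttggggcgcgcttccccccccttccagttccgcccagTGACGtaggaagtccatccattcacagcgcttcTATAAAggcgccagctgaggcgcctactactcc
Junb promoter: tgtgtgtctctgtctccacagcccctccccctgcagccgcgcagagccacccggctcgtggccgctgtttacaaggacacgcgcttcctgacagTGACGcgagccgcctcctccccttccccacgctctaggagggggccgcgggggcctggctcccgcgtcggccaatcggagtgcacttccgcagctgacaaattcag
Further windows of 30 bases hold the CArG box, the core of the SRF element, in Egr2 (chr10:67537787-67537816, plus strand) and Zfp36 (chr7:28379267-28379296, minus strand, overlapping 1 annotated exon), and a full CREB element (TGACGTCA) in Dusp1 (chr17:26508596-26508625, minus strand), all in capitals.
Egr2 CArG box: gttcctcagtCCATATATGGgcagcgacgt
Zfp36 CArG box: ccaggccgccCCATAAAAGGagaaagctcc
Dusp1 CREB element: gtagggcgggTGACGTCAccgcccggtcac

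Within the 250 bases before the start, TGACG on either strand was present for 5 of the 8 members with a promoter (Fos, Fosb, Junb, Egr2 and Dusp1) and for 19.8% of 27025 genes in the table. The CArG box, searched on both strands, was present for 2 of the 8 (Egr2 and Zfp36) and for 1.62% of all genes. TGACGTCA, which contains TGACG on both strands, was present for Dusp1 alone among the members and for 1.77% of all genes. TATAAA on the gene's strand was found for Fos, and for 8.94% of all genes. The EGR motif GCGNGGGCG, on either strand, was found for Fosb and Zfp36, and for 5.33% of all genes. A gene with several listed starts was counted once if any window held the motif, and a match describes letters only. Bases farther upstream were not searched, for Fos as for the others, so a motif not found here may lie there.

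The heptamer TATTTAT, the core of an AU-rich element and the sequence that ZFP36 itself binds, was present in the longest annotated 3′ untranslated region of 6 members. It occurred in 31.2% of 10639 tested genes with such a region, and in 26.4% of the 5542 genes whose region was between 485 and 2302 bases, the range of the members. Zfp36 and Dusp1 had 3 copies each, Fos 2, and Fosb, Jun and Jund 1 each. The first copy in 4 members is shown in capitals, from GENCODE M21 transcripts, at chr12:85477103-85477132 (Fos), chr4:95049078-95049107 (Jun), chr17:26506158-26506187 (Dusp1) and chr7:28376965-28376994 (Zfp36).
Fos 3′ site: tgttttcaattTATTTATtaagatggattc
Jun 3′ site: ttgcttgtgcaTATTTATaatagcgttcgt
Dusp1 3′ site: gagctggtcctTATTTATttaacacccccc
Zfp36 3′ site: agtgggcccttTATTTATgacgactttatt

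No member passed the test of KO against WT. Of the 10 members, 0 had an adjusted p under 0.05 by edgeR's quasi-likelihood test, against 0.583% of the 11498 genes tested (0.252% higher and 0.33% lower in KO). DESeq2 and limma voom also called 0. Before adjustment, edgeR gave a p under 0.05 for 1 member higher in KO (Egr2) and for 0 lower, against 11.2% of all genes in either direction. The fitted log2 fold change was below 0 for 9 members, with a median of -0.24, beside a median of 0.00 and 49.8% below 0 over all genes. Most members went up and down together between mice, so the 9 signs are not independent observations. With 1 library left out, the members' median ran from -0.42 (without KO mouse 4) to -0.09 (without KO mouse 1). WT and KO libraries overlapped for all 10, whereas 5.81% of all genes had no overlap.

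**Figure D1:**
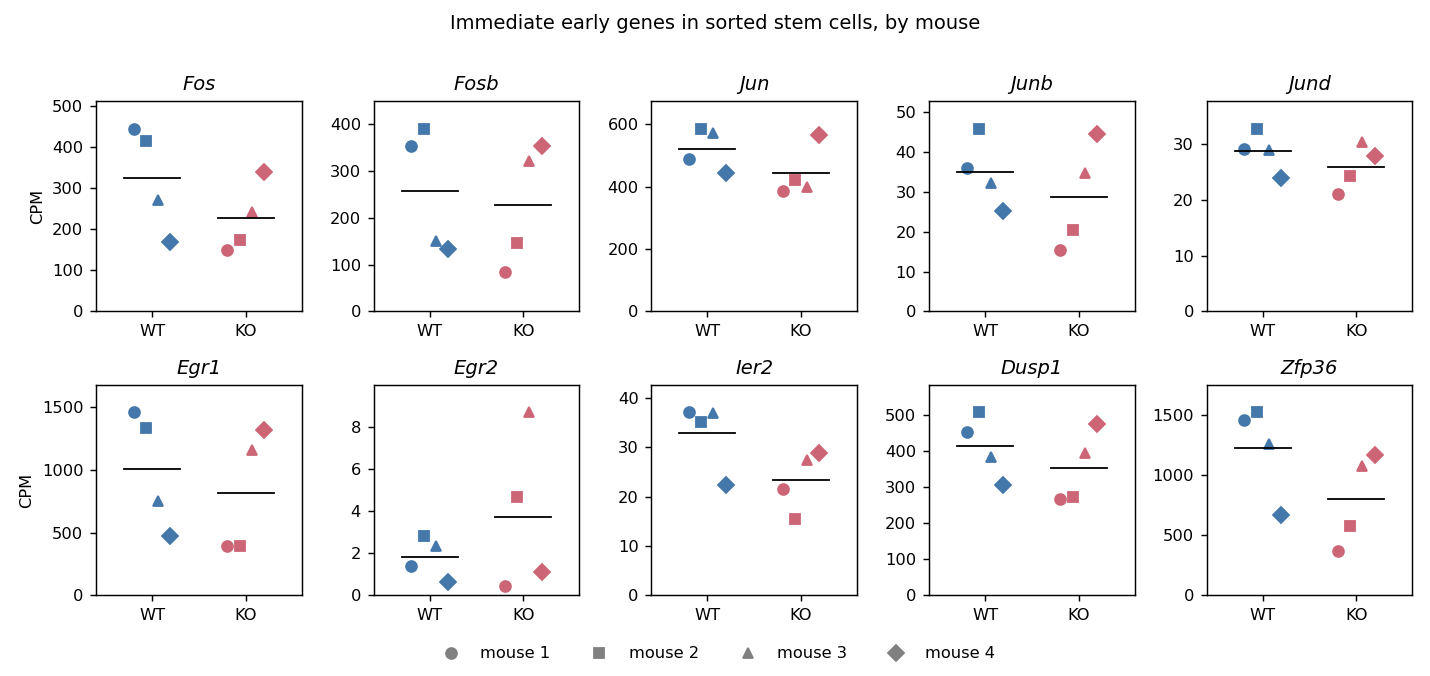
CPM (linear axis from 0) of each of the 10 genes in the 4 WT (blue) and 4 KO (red) mice, with marker shape for the mouse number and a line at the group mean. The groups overlap for every gene, and WT mouse 4, KO mouse 1 and KO mouse 2 lie low in most panels.

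Fos encodes the partner that JUN proteins need for the most stable form of AP-1 (chromosome 12, 85473890 to 85477273, 4 merged exons). Its level was 446, 417, 272 and 170 CPM in WT mice 1 to 4, and 150, 175, 244 and 341 CPM in KO mice 1 to 4. The highest and lowest mice of a genotype differed 2.61-fold in WT and 2.28-fold in KO. The means were 326 ± 129 CPM in WT and 227 ± 85.5 CPM in KO (SD, n = 4), a log2 fold change of -0.52 (SE 0.382, adjusted p = 0.698 by edgeR). The 95% interval ran from -1.43 to 0.39, and thus held both a fall and a rise.

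Fosb (chromosome 7, 19302696 to 19310051, minus strand), a close relative of Fos, ranged further. It stood at 354, 391, 152 and 133 CPM in WT mice 1 to 4 and at 85.2, 146, 322 and 353 CPM in KO mice 1 to 4. In each genotype, 2 mice were high and 2 low, with a 4.15-fold range in KO. The log2 fold change was -0.16 (SE 0.587, adjusted p = 0.956 by edgeR), with a 95% interval from -1.58 to 1.26. Its sign turned when WT mouse 1, WT mouse 2 or KO mouse 1 was left out, the highest value being 0.11.

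The JUN genes encode the other partners in AP-1. Jun (chromosome 4, 95049034 to 95052222, minus strand), a single-exon gene, was the steadiest of the highly expressed members. Its level was 488, 586, 573 and 444 CPM in WT mice 1 to 4, and 385, 422, 398 and 566 CPM in KO mice 1 to 4. The 3 lowest values were those of KO mice 1, 2 and 3, but KO mouse 4 lay above WT mice 1 and 4. The log2 fold change was -0.24 (SE 0.126, adjusted p = 0.481 by edgeR), with a 95% interval from -0.50 to 0.02.

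Junb (chromosome 8, 84974484 to 84978718, minus strand), known as a brake on stem cell and myeloid proliferation, was at 36.1, 45.9, 32.3 and 25.3 CPM in WT mice 1 to 4. In KO mice 1 to 4 it was at 15.4, 20.5, 34.8 and 44.6 CPM. The KO mice ranged from below the lowest WT mouse to just under the highest, with a log2 fold change of -0.23 (SE 0.279, adjusted p = 0.828 by edgeR). Jund (chromosome 8, 70698949 to 70700616), the family member known for steady expression, was at 29.1, 32.7, 29.0 and 23.9 CPM in WT and 21.0, 24.2, 30.4 and 27.9 CPM in KO. Its log2 fold change was -0.10 (SE 0.236, adjusted p = 0.928 by edgeR). An antisense gene, Gm11175, covers 52.6% of the exon sequence of Jund, Prdx2 on the other strand covers 7.52% of Junb, and Junos covers 7.28% of Jun. Since the sources used here do not give the strand setting of the counting, reads of these partners cannot be told apart.

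Egr1 (chromosome 18, 34859823 to 34864984), a zinc finger factor known to hold stem cells in quiescence, was among the most abundant members and among the most variable. It reached 1460, 1333, 751 and 472 CPM in WT mice 1 to 4, and 393, 396, 1158 and 1322 CPM in KO mice 1 to 4. Both genotypes held high and low mice, a 3.09-fold range in WT and a 3.36-fold range in KO. The log2 fold change was -0.29 (SE 0.578, adjusted p = 0.915 by edgeR), with a 95% interval from -1.69 to 1.11.

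Egr2 (chromosome 10, 67535475 to 67542188), a relative of Egr1, was scarce, with 8, 10, 12 and 4 counts in WT mice 1 to 4 and 3, 33, 130 and 6 counts in KO mice 1 to 4. These were 1.39, 2.80, 2.35 and 0.645 CPM in WT, and 0.429, 4.67, 8.69 and 1.11 CPM in KO. KO mice 2 and 3 lay above all WT mice, while KO mice 1 and 4 lay among or below them. Its log2 fold change of 1.54 (SE 0.706) had an unadjusted p of 0.0380 and an adjusted p of 0.406 by edgeR. Without KO mouse 3 the log2 fold change was 0.38. Egr2 was too scarce to be tested under the stricter filter or after thinning of counts.

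Ier2 (chromosome 8, 84661331 to 84662852, minus strand), a small nuclear protein gene, stood at 37.1, 35.2, 37.0 and 22.3 CPM in WT mice 1 to 4. In KO mice 1 to 4 it was at 21.6, 15.4, 27.3 and 28.8 CPM. Of the WT mice, 3 lay above all KO mice, and WT mouse 4 lay within the KO range. The log2 fold change was -0.46 (SE 0.254, adjusted p = 0.510 by edgeR), with a 95% interval from -0.99 to 0.06.

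Dusp1 and Zfp36 encode negative regulators that are induced with the rest. DUSP1 dephosphorylates MAP kinases, and ZFP36 (tristetraprolin) binds AU-rich elements and speeds mRNA decay. Dusp1 (chromosome 17, 26505590 to 26562128, minus strand) was at 455, 508, 385 and 307 CPM in WT mice 1 to 4 and 268, 273, 396 and 476 CPM in KO mice 1 to 4. The groups overlapped widely, with a log2 fold change of -0.22 (SE 0.180, adjusted p = 0.712 by edgeR). Zfp36 (chromosome 7, 28376784 to 28380253, minus strand), the most abundant member, was at 1464, 1525, 1259 and 671 CPM in WT and 372, 580, 1080 and 1172 CPM in KO. WT mice 1, 2 and 3 lay above all KO mice, and WT mouse 4 lay below KO mice 3 and 4. The log2 fold change was -0.61 (SE 0.446, adjusted p = 0.695 by edgeR), with a 95% interval from -1.69 to 0.47.

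The result for 2 members depended on the filter. Without a filter on low counts, edgeR called Zfp36 lower (log2 fold change -0.60, SE 0.100, adjusted p = 1.95e-06) and Fos lower (-0.50, SE 0.135, adjusted p = 0.0262). The fold changes were close to those above and the standard errors far smaller. The other 17 settings, DESeq2 and limma voom among them, called neither.

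**Figure D2:**
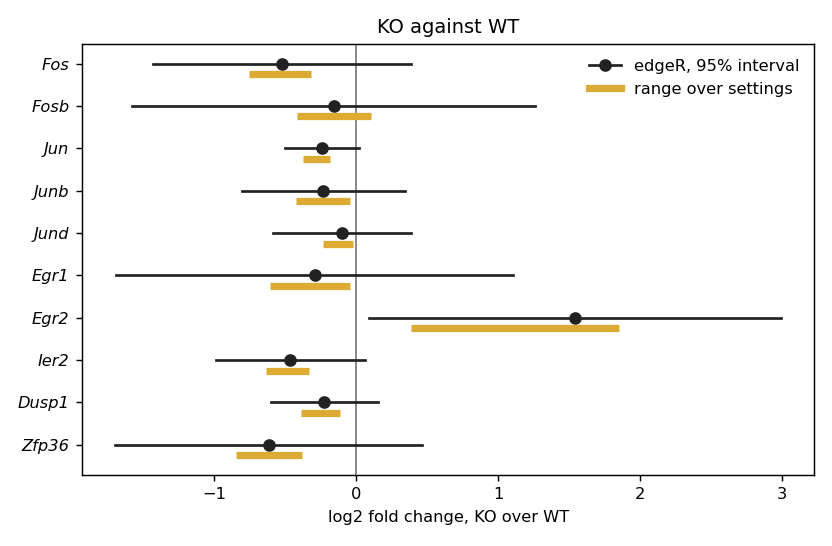
Fitted log2 fold change of KO over WT for each gene (point) with its 95% interval from edgeR (black line), and the lowest to highest value over the reported and alternative settings (yellow bar). The interval crosses 0 for 9 of the 10 genes, and that of Egr2 does not.

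Levels of different genes were compared per kilobase of annotated exon, as the mean ± SD over 8 mice. The length merges the exons of all annotated transcripts of a gene. Which transcripts were present was not examined, and the order depends on these lengths. Zfp36 was highest at 293 ± 123 CPM per kb, followed by Egr1 at 203 ± 102, Jun at 151 ± 25.8, Fos at 118 ± 48.5 and Dusp1 at 116 ± 28.1 CPM per kb. Zfp36 exceeded Egr1 in 8 of 8 mice, but Egr1 exceeded Jun in only 4 and Fos exceeded Dusp1 in 3, so these neighbours did not differ beyond their spread. Fosb stood lower at 38.8 ± 19.8 CPM per kb, below Dusp1 in all 8 mice. Ier2, Jund and Junb followed at 18.5 ± 5.27, 16.4 ± 2.34 and 13.8 ± 4.72 CPM per kb. Fosb exceeded Ier2, Ier2 exceeded Jund and Jund exceeded Junb in 6 of 8 mice each. Egr2 was last at 0.812 CPM per kb, below Junb in 8 of 8 mice. The transcripts of Jund, Junb and Ier2 were also the richest in G and C among the members, at 67.1%, 62.6% and 60.9%, against a median of 49.7% over tested genes. The part of base composition in these levels was not tested.

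The spread between mice of a genotype was wide for Fosb, Egr1, Zfp36 and Fos. The SD of log2 CPM within groups was 0.89 for Fosb, 0.86 for Egr1, 0.68 for Zfp36 and 0.59 for Fos. These lay at percentiles 91.9, 91.1, 83.7 and 78.6 of all genes tested, among which the more abundant genes mostly had small SDs. Egr2 had the widest SD of the members, 1.3, at a level where counting error is large. Junb was at 0.55, Ier2 at 0.38 and Dusp1 at 0.36. Jun and Jund were steadier than most genes, at 0.22 and 0.21 (percentiles 24.1 and 21.0). The median over the 10 members was 0.57, against 0.34 over all genes.

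edgeR's own estimate of biological variation sets each gene beside the trend for genes of like abundance. The coefficient of variation was 0.319 for Egr1 and 0.329 for Fosb, against trends of 0.138 and 0.146, and thus 2.31 and 2.25 times the trend. It was 1.87 times the trend for Zfp36 and 1.66 times for Fos. Jun (1.03 times), Ier2 (0.991 times) and Jund (0.892 times) were close to it. The SD of log2 CPM was wider in KO than in WT for 9 of the 10 members, Fos being the exception. On the CPM scale the SD was wider in WT also for Fosb (134 against 131), Ier2 (7.15 against 6.09) and Zfp36 (389 against 387). Since most members moved together between mice, they are not independent observations of this. Over all genes tested 49.2% had a wider SD of log2 CPM in KO. The difference in spread was not tested.

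**Figure D3:**
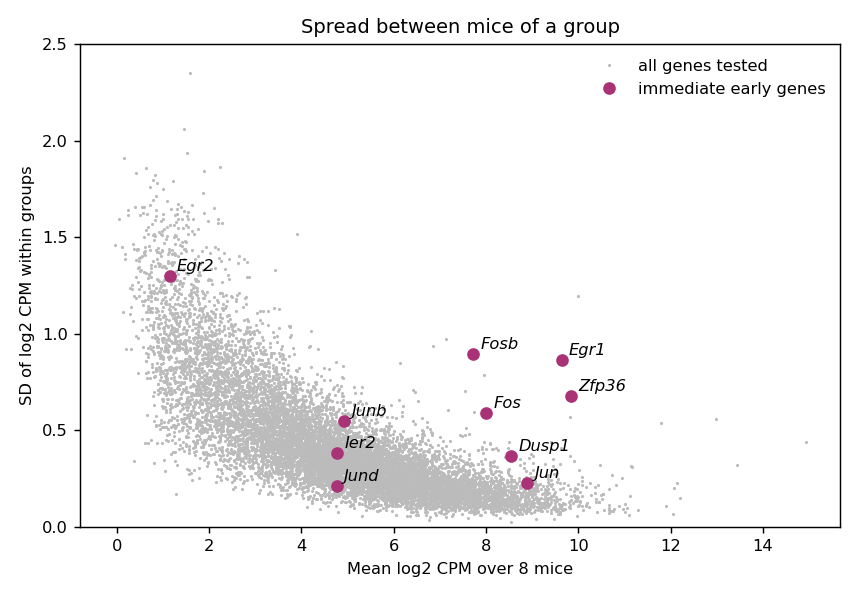
SD of log2 CPM between mice of a group (pooled over WT and KO, vertical axis) against mean log2 CPM over 8 mice (horizontal axis), for all 11498 genes tested (grey) and the 10 members (purple). Fosb, Egr1, Zfp36 and Fos lie above the grey cloud at their level, and Jun and Jund lie near or within it.

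The same mice were high or low for nearly all members. WT mouse 2 had the highest level of the 8 mice for 6 members and WT mouse 1 for 3, with KO mouse 3 highest for Egr2. KO mouse 1 was lowest for 9 members and KO mouse 2 lowest for Ier2. The 3 lowest places were held by KO mouse 1 for 10 members, and by WT mouse 4 and KO mouse 2 for 9 each. The members' levels averaged 0.38, 0.55, 0.12 and -0.48 in WT mice 1 to 4, as log2 differences from each gene's mean over 8 mice. In KO mice 1 to 4 they averaged -0.84, -0.37, 0.35 and 0.29. Egr2, with 3 to 130 counts per library, weighs in these means like any other member. It stood at -0.40, 0.48, 0.25 and -1.24 in WT mice 1 to 4 and at -1.62, 1.16, 2.02 and -0.66 in KO mice 1 to 4. The order of mice with close means can thus rest on Egr2. KO mouse 3 was above the mean for 8 members. Low and high mice thus occurred in both genotypes, 1 low in WT and 2 low in KO. Together the 10 genes took from 0.170% of counts in KO mouse 1 to 0.485% in WT mouse 2.

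**Figure D4:**
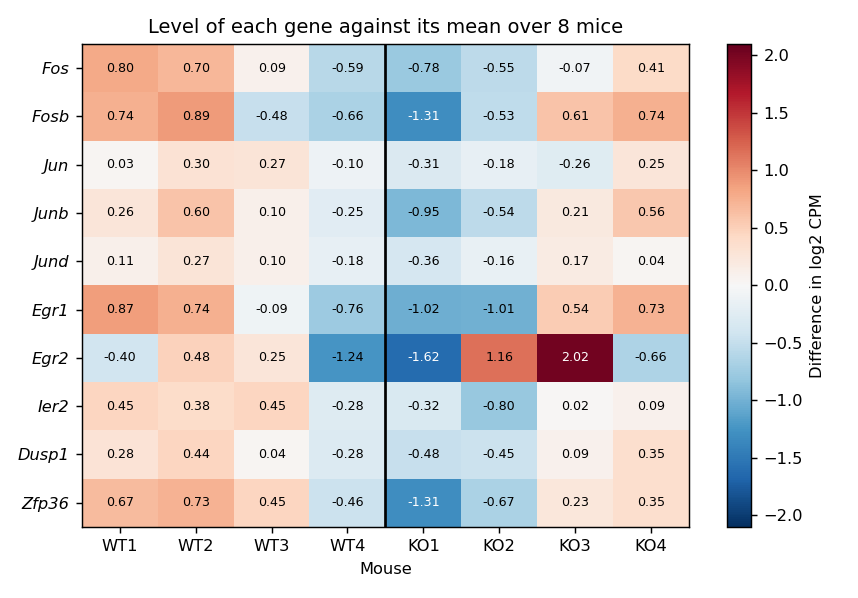
Difference in log2 CPM of each gene (row) in each mouse (column) from that gene's mean over 8 mice, red for higher and blue for lower. Columns WT4, KO1 and KO2 are blue for nearly all rows, and Egr2 departs from the others in KO2, at 1.16, and in WT1 and KO4.

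Pairwise correlations were computed on log2 CPM centred within each genotype, over 8 libraries. All 45 pairs were positive, from 0.09 to 0.97, with a median of 0.82. A correlation of at least 0.8 was reached by 51.1% of member pairs and by 1.71% of all pairs of tested genes. Fos and Egr1 had a Pearson r of 0.95 (exact two-sided permutation p = 0.00174, the smallest that 576 permutations within genotypes can give) and a Spearman rho of 1.00 (exact permutation p = 0.00347) on ranks within genotypes. Without the 2 mice farthest from the median of Fos after centring within genotypes, WT mouse 4 and KO mouse 4, r was 0.93. Junb and Zfp36, which lie on different chromosomes, had an r of 0.95, and 0.93 without KO mice 1 and 4.

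Of the 45 pairs, 20 had a Benjamini-Hochberg adjusted exact permutation p under 0.05 for Pearson's r, and 7 for Spearman's rho. The pairs share genes and mice, so they are not independent observations. No such p was computed for pairs of other genes. Jun was less tightly tied to the rest: its r with Fos was 0.67 (exact permutation p = 0.104), and -0.29 without WT mouse 4 and KO mouse 4, so that relation rests on those mice. Egr2 was the loosest, with a median r of 0.35 to the other 9. The libraries share a protocol and a scaling, and the members were picked with results of these data known.

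Technical measures of the libraries are given beside this pattern. Rn45s, the ribosomal RNA precursor, took 4.85%, 3.17%, 4.42% and 2.38% of counts across WT mice 1 to 4. It took 2.49%, 2.39%, 2.37% and 3.93% across KO mice 1 to 4. The 3 mice low in the members, WT mouse 4 and KO mice 1 and 2, were also low in Rn45s, whereas KO mouse 3 was high in the members and lowest in Rn45s. With Rn45s left out before scaling, the members' median log2 fold change was -0.24, as before. Its part in the spread between mice was not tested. Depth also differed: the 3 low mice had 6044289, 7059382 and 6979889 counts, more than WT mice 1, 2 and 3 and KO mouse 4 (3594315 to 5902042), while KO mouse 3, high in the members, had 14872493. With every library thinned to 3594315 counts, the SD of log2 CPM within groups was 0.85 for Egr1 and 0.90 for Fosb, against 0.86 and 0.89 before thinning. Egr1 had at least 2753 counts and Fosb at least 596 in every library, so thinning could change these SDs little. The members' median SD was 0.51 after thinning, when Egr2 was too scarce to be included, against 0.57 before. Any link of depth to a library's handling was not tested. In bulk RNA, fewer cells in an activated state and less RNA in each cell cannot be told apart. Among markers of other cells, the 5 erythroid markers summed to 7.42 to 30.8 CPM in WT and 10.0 to 18.6 CPM in KO, the 2 that were tested being Klf1 and Epor, while Hba-a1 and Hbb-bs were at 0. Their sum was lowest in WT mouse 4, followed by KO mice 1 and 2, and its part was not tested.

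Other immediate early genes followed the members in part. Of 43 listed, 33 were tested and edgeR called 0, as did DESeq2 and limma voom. Before adjustment, 2 had a p under 0.05 by edgeR, both lower, against 11.2% of all genes in either direction. The median log2 fold change was -0.16, against 0.00 over all genes. Mcl1, an anti-apoptotic BCL-2 family gene, led the list by p, with 616 ± 102 CPM for WT and 483 ± 36.3 CPM for KO (SD, n = 4, adjusted p = 0.210 by edgeR). Zfp36l2, a paralogue of Zfp36 and the most abundant of the list, was at 641 ± 40.8 and 534 ± 38.1 CPM (adjusted p = 0.313 by edgeR). The list's mean difference from each gene's mean was 0.09, 0.43, 0.11 and -0.19 across WT mice 1 to 4. It was -0.60, -0.31, 0.16 and 0.30 across KO mice 1 to 4. Of the 33 genes, 8 (24.2%) had an r of at least 0.8 with the members' mean, against 2.38% of all genes tested. The median r of the list was 0.60, and 4 genes had an r below 0, Dusp6 (-0.36), Nfkbia (-0.26), Myc (-0.04) and Plk3 (-0.04), named after their values were seen.

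The list of upstream genes varied less between mice on average. It includes MAP kinases, SRF, its ELK cofactors and CREB. All 30 were tested and 0 passed edgeR's test, with 0 also by DESeq2 and limma voom. At an unadjusted p under 0.05, edgeR had 1 higher and 2 lower, against 11.2% of all genes in either direction. Their mean difference from each gene's mean stayed between -0.06 and 0.08 in the 8 mice. Rps6ka5, a kinase that phosphorylates histone H3 at immediate early genes, led by p, with 62.5 ± 13.9 CPM for WT and 39.0 ± 13.9 CPM for KO (SD, n = 4, adjusted p = 0.213 by edgeR). Rps6ka3, the most abundant, was at 661 ± 61.4 and 644 ± 139 CPM. Of 13 tested genes for other AP-1 partners, 0 passed by edgeR, 0 had an unadjusted p under 0.05, and DESeq2 and limma voom called 0. Bach1, a haem-sensing repressor, had the smallest p of these (77.9 ± 19.6 and 60.7 ± 6.23 CPM), and Nfe2l2, the oxidative stress factor NRF2, was the most abundant (210 ± 11.4 and 221 ± 20.6 CPM).

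Heat shock genes, which also respond to handling, were mostly higher in KO by fitted fold change. Of 13 tested, 1 rose and 0 fell by edgeR, against 0.583% of all genes called in either direction. An unadjusted p under 0.05 by edgeR was reached by 5, all higher, against 11.2% of all genes in either direction. The median log2 fold change was 0.33. DESeq2 called 3 and limma voom 1. Hspd1, the mitochondrial chaperone HSP60, was at 599, 519, 543 and 496 CPM in WT mice 1 to 4 and 689, 686, 864 and 796 CPM in KO mice 1 to 4. The groups did not overlap, as for 5.81% of all genes. Its log2 fold change was 0.49 (SE 0.107, adjusted p = 0.0240 by edgeR). That call was lost with the replicate block (adjusted p = 0.0620 by edgeR) and without WT mouse 2 (0.106), WT mouse 3 (0.0942), WT mouse 4 (0.0922), KO mouse 3 (0.0902) or KO mouse 4 (0.0790). Hsp90ab1, the most abundant, was at 4654 ± 326 and 4464 ± 948 CPM.

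The heat shock list was lowest in WT mouse 4, at -0.55, and stood at 0.00, -0.22 and 0.11 across WT mice 1 to 3. Across KO mice 1 to 4 it stood at 0.27, 0.20, 0.43 and -0.24. KO mouse 1, lowest for the immediate early genes, was thus among the higher mice for heat shock genes. KO mouse 4 was below their mean on this measure, in which scarce and abundant genes weigh alike. By summed CPM, which leans on the abundant genes, KO mouse 4 was instead the highest of the 8 mice, at 10239. KO mouse 1 was at 10053 and WT mouse 4 lowest at 8057. The inducible heat shock genes Hspa1a and Hspa1b, picked out after their values were seen, averaged 1.9 and 2.8 CPM over 8 mice. They were at 0 and 0.557 CPM in KO mouse 4 and at 0.161 and 0.323 CPM in WT mouse 4, and so lowered the list's mean there. Of 12 stem cell genes, 0 passed by edgeR, 2 by DESeq2 and 0 by limma voom. At an unadjusted p under 0.05, edgeR had 1 higher and 5 lower, against 11.2% of all genes in either direction. Ly6a, which encodes Sca-1, had the smallest p (47.9 ± 14.1 CPM in WT and 81.0 ± 6.52 CPM in KO, adjusted p = 0.0967 by edgeR), and Hlf was the most abundant (1475 ± 133 and 1214 ± 102 CPM). The list's mean difference from each gene's mean stayed between -0.14 and 0.12 in all 8 mice. Its fitted log2 fold changes nonetheless leaned down, with a median of -0.22 and 10 of 12 below 0. The summed level was 4595 to 4846 CPM in WT and 3828 to 4298 CPM in KO.

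**Figure D5:**
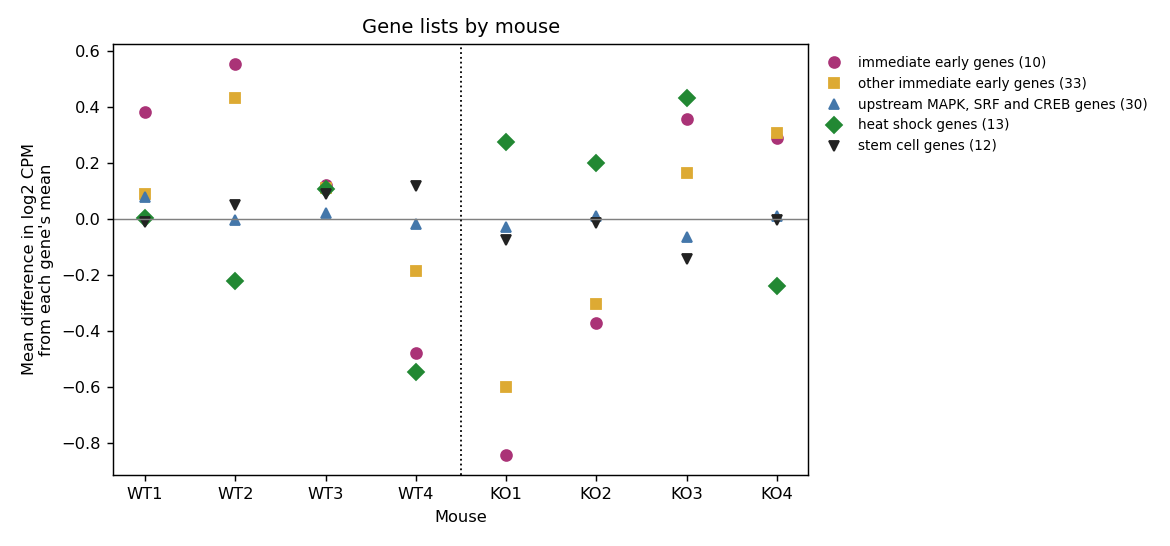
Mean difference in log2 CPM from each gene's mean over 8 mice (vertical axis) for 5 gene lists in each mouse (horizontal axis, dotted line between WT and KO), with the number of genes tested in brackets. Both immediate early lists are low in WT4, KO1 and KO2, the upstream and stem cell lists stay near 0, and the heat shock list differs from both.

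The 5 genes whose pattern over the 8 libraries was most like that of the members were taken from 6711 genes with at least 20 CPM, leaving out symbols of the Gm and Rik kind. They were Zc3h7b (Pearson r of 0.99 with the members' mean, centred within genotypes), Cpsf7 (0.99), Npepl1 (0.98), Mmgt1 (0.98) and Stk40 (0.97). These are the highest values among many genes, and no test was made of them. Zc3h7b was at 128, 134, 122 and 95.7 CPM in WT mice 1 to 4 and 85.9, 102, 130 and 130 CPM in KO mice 1 to 4. Its range was narrower than that of Fos or Egr1. WT mouse 4 and KO mouse 1 were the lowest, which the choice by r favours.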

How the data were processed

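RNA-seq was done on sorted haematopoietic stem cells of 4 WT and 4 KO mice. Per the labels' protocols, the authors amplified cDNA with the Nugen Ovation system, used STAR for mapping (2.4.0d-2 in Galaxy) and deposited raw counts per gene symbol from htseq-count (0.6.1galaxy1). The build in the submitters' processing notes is mm10. Amplified reads without molecular identifiers are not independent molecules. Strand setting and annotation: not given in the sources used here.

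The analysis of counts used edgeR 4.0.16 (R 4.3.3), after filterByExpr (minimum count 10, minimum total 15) had left 11498 genes. Libraries were scaled by TMM (factors 0.974 to 1.03). KO was compared with WT by the quasi-likelihood test with robust dispersion, two-sided, with genotype as the only term. Benjamini-Hochberg adjustment covered all tested genes, at a threshold of 0.05. Folds come from the fitted model, and log2 CPM used a prior count of 2. The procedure was tested on simulated data. No 2 libraries of a genotype agreed within sampling noise (smallest chi-square per degree of freedom 11.4).

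The members and gene lists were chosen with earlier results of these data known. Named genes were the 10 members, the targeted genes, and from each list up to 3 genes past the threshold (else the smallest p) and the most abundant. Coordinates are 1-based, from GENCODE M21. Alternatives were DESeq2 1.42.0, limma 3.58.1 voom, other scalings and filters, thinning to 3594315 counts, a replicate block, removal of Rn45s and omission of each library.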

Additional observations from a re-analysis of the deposited data

Results flagged for a closer look

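Of 40 groups of 4 libraries examined, 3 held a library far from the other 3 (a gap to the others above Dixon's 95% critical share of the range), where chance gives about 5%. Ier2 was at 22.3 CPM in WT mouse 4 and between 35.2 and 37.1 CPM in the other WT mice. Zfp36l2 was at 478 CPM in KO mouse 1 and between 547 and 556 CPM in the other KO mice. Nfe2l2 was at 193 CPM in WT mouse 2 and between 214 and 217 CPM in the other WT mice.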

How the results depend on the processing

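The count of genes called in KO against WT was 67 as reported, 198 without a filter, 157 with DESeq2, and between 35 (without WT mouse 3) and 70 with 1 library left out. It was 44 without WT mouse 2 and 44 without KO mouse 4. The count of immediate early genes called was 0 as reported, 2 without a filter, and 0 under each of the other 17 settings; the cause was not tested. Over the 5 other gene lists (other immediate early, upstream, AP-1 partner, heat shock and stem cell genes, without cell type markers) 1 gene was called as reported, 3 without a filter, 5 with DESeq2, and 0 to 1 with 1 library left out. The log2 fold change of Fosb ran from -0.41 to 0.11 with 1 library left out, that of Rps6ka3 from -0.14 to 0.078 and that of Hsp90ab1 from -0.19 to 0.037, each changing sign. The median SD of the members within groups ran from 0.49 to 0.62 with 1 library left out. With the replicate block, 57 genes and 0 immediate early genes were called. Mice with the same number did not deviate together (correlations between -0.09 and -0.01), so the mice were treated as unpaired. Counting error limits Egr2, with 3 to 130 counts per library.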

Other observations

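Several further immediate early genes were chosen after their values were seen, for an r of at least 0.8 with the members' mean. They were low in the same mice as the members, which that choice favours. Egr3, a relative of Egr1, was at 32.4, 38.3, 11.6 and 9.68 CPM in WT mice 1 to 4 and at 2.14, 5.66, 32.4 and 34.7 CPM in KO mice 1 to 4. The orphan nuclear receptor gene Nr4a1 was at 33.8, 58.5, 30.2 and 22.7 CPM in WT and 8.58, 14.4, 38.9 and 38.6 CPM in KO. Klf6, a Kruppel-like factor gene, was at 322, 437, 240 and 209 CPM in WT and 217, 239, 328 and 336 CPM in KO. The SD of log2 CPM within groups was 1.51 for Egr3, 0.85 for Nr4a1 and 0.40 for Klf6. None of these 3 passed edgeR's test of KO against WT, with adjusted p of 0.978, 0.785 and 0.921. In contrast, 10 of the 43 listed genes were too scarce to test, among them the AP-1 gene Fosl1, Egr4, Arc and Npas4, the last 2 best known from neurons.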
